A study of Mus musculus with 3 samples.

Results

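The 9 genes described here encode receptors with which B-lymphoid cells home, adhere and migrate: the chemokine receptors Cxcr4, Cxcr5 and Ccr7, the integrin subunits Itga4, Itgb1 and Itgal, the hyaluronan receptor Cd44, the sphingosine 1-phosphate receptor S1pr1 and the selectin ligand Selplg. They were matched by symbol, and all 9 were found among the 50686 genes of the count table. RNA-seq of polyA RNA was performed on 3 stable BCR::ABL1+ cell lines of the Cdk6 K43M genotype, called lines 1, 2 and 3 after their replicate numbers. All 3 lines grew out of C57BL/6 mouse bone marrow that was homozygous for a kinase-inactive CDK6 and had been infected with a retrovirus coding for BCR-ABLp185 and, behind an internal ribosome entry site, GFP. They are recorded as Pre/Pro-B cells and were kept in RPMI with 10% FCS and 2-mercaptoethanol. The transforming oncogene and the Cdk6 mutation are thus shared by every library, and no wild type or knockout library was analysed here, so no value below is an effect of the genotype. The records do not say whether each line came from a different mouse, and the spreads given are those between 3 cultured lines away from marrow stroma.

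Lymphocyte traffic runs through steps that these receptors divide among them. Selectins and their ligand PSGL-1, the product of Selplg, slow a cell on the vessel wall, chemokine receptors coupled to Gi proteins switch integrins to a state of high affinity, and the integrins hold the cell on VCAM-1, fibronectin or ICAMs. In bone marrow, CXCR4 and the integrin VLA-4 keep B-cell precursors beside stromal cells that make CXCL12, CD44 binds hyaluronan in the matrix, and S1PR1 draws cells out towards the sphingosine 1-phosphate of blood. CCR7 and CXCR5 guide mature lymphocytes into the T zone and the follicles of lymphoid organs.

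Libraries held between 19633463 and 25773221 counts. Levels are given as CPM, counts scaled to a common library size with the trimmed mean of M-values (TMM). A gene with no count may stand at up to 3 counts, or 0.118 to 0.152 CPM. The B-precursor list summed to 3661, 4100 and 3823 CPM in lines 1, 2 and 3, with 9 of its 10 genes at 1 CPM or more in all 3. The exception was Dntt, at 0.967, 1.62 and 4.28 CPM. The T, NK, erythroid, megakaryocyte, mast-cell and stromal lists summed to at most 1.01 CPM per list and line, with Cd3e, Hba-a1, Pf4 and Col1a1 at 0, and the myeloid list to 1.75 to 3.93 CPM, most of it Lyz2. Of the mature B list, Cd22 stood at 148, 121 and 171 CPM in lines 1, 2 and 3, Cr2 at 10.4, 5.07 and 22.2 CPM, Ighd at 19.4, 12.7 and 1.49 CPM and Ms4a1 at 2.72, 1.42 and 0.432 CPM, and Fcer2a had at most 2 counts. The plasma cell list summed to 31.6 to 39.4 CPM, and the endothelial list to 49.5, 80.2 and 99.8 CPM almost wholly through Pecam1, as Cdh5 was at 0. Cdk6 itself was counted at 449.5, 334 and 239 CPM in lines 1, 2 and 3, and gene counts do not show the mutated base. In bulk RNA, fewer cells of a type and less RNA per cell cannot be told apart.

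All 9 receptor genes were detected at 1 CPM or more in every line, as were 10351 genes of the table. Together they took up 0.118%, 0.106% and 0.112% of all counts in lines 1, 2 and 3. Divided by the length of their exons, their levels ran from Itgb1, with 60.0 ± 1.35 CPM per kilobase (SD, n = 3), down to S1pr1, with 1.85 ± 1.63 CPM per kilobase. The median of the 9 was 14.4 CPM per kilobase, against 5.23 over the 13945 tested genes of known length. Between these ends, Selplg (51.6 ± 13.1), Cxcr4 (44.2 ± 8.82) and Itga4 (26.3 ± 3.96) were followed by Cd44 (14.4 ± 2.68), Itgal (13.3 ± 7.0), Cxcr5 (3.28 ± 2.73) and Ccr7 (3.25 ± 0.319 CPM per kilobase, SD, n = 3). Only 3 of the 8 neighbouring pairs in this order were apart by more than their SDs and stood in the same order in 3 of 3 lines, and these were Cxcr4 above Itga4, Itga4 above Cd44, and Itgal above Cxcr5. The remaining 5 neighbouring pairs were not separated. With only the transcript that has the longest coding sequence in place of all exons, Selplg came above Itgb1 (119 ± 30.2 against 64.2 CPM per kilobase) and Itgal above Cd44 (19.3 against 17.4). By that length the mean of Cxcr4 was still above that of Itga4 (44.3 ± 8.83 against 37.6 ± 5.67 CPM per kilobase, SD, n = 3). Their SDs then overlapped, so the separation of Cxcr4 from Itga4 depended on the length used.

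**Figure D1:**
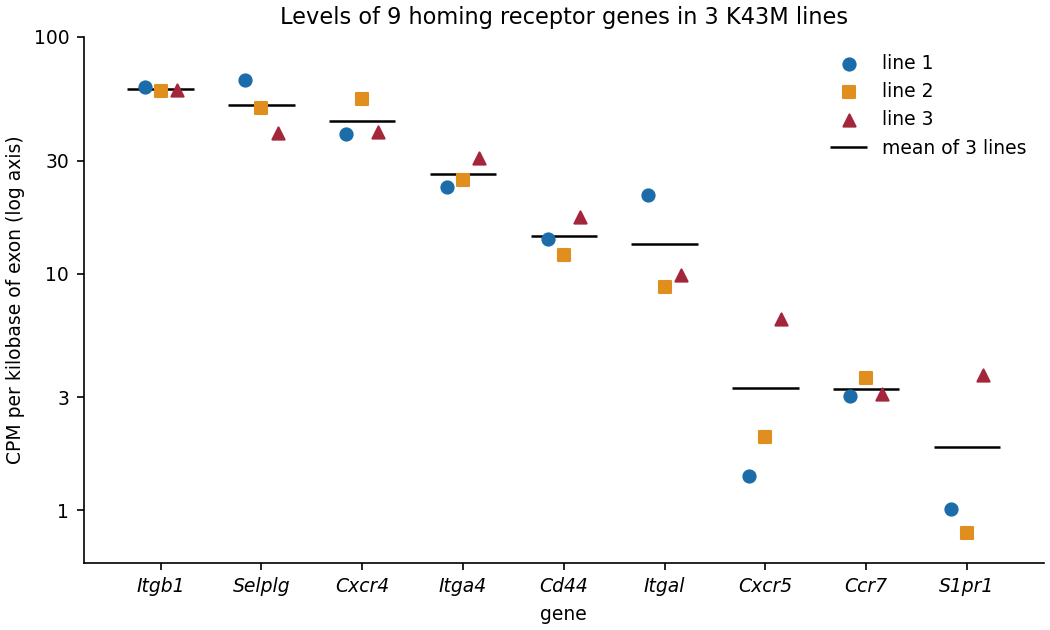
Levels of the 9 receptor genes in CPM per kilobase of exon (log axis), ordered by their mean over 3 K43M lines (bar), with 1 symbol for each line. Itgb1 lay within 58.8 to 61.4 in all lines, while line 3 was above both others for Cxcr5 and S1pr1 and line 1 for Itgal.

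Whether the lines differed beyond counting noise was asked with a chi-square test of homogeneity of each gene's counts, with Benjamini-Hochberg adjustment over 13974 genes. The test compares these 3 libraries and not conditions. Of the 9 receptor genes, 7 differed between the lines, while 66.8% of all genes tested did so. At this depth most genes differed, and the count says nothing particular about the receptors. The range, taken as the highest minus the lowest line on the log2(CPM + 1) scale, had a median of 0.52 over the 9 genes and of 0.29 over the 9389 genes with a mean of at least 5 CPM. It was above 0.29 for 7 of the 9. The median of the 9 was 0.35 without line 1, 0.39 without line 2 and 0.26 without line 3. At equal scaling a range over 2 lines cannot exceed that over 3, so these falls do not point to any line. Among the 9 genes, 3 were highest in line 1, 2 in line 2 and 4 in line 3. Of the genes with a mean of at least 5 CPM, 29.98%, 32.44% and 37.58% were highest in lines 1, 2 and 3. The split of the 9 thus says nothing particular about the receptors.

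**Figure D2:**
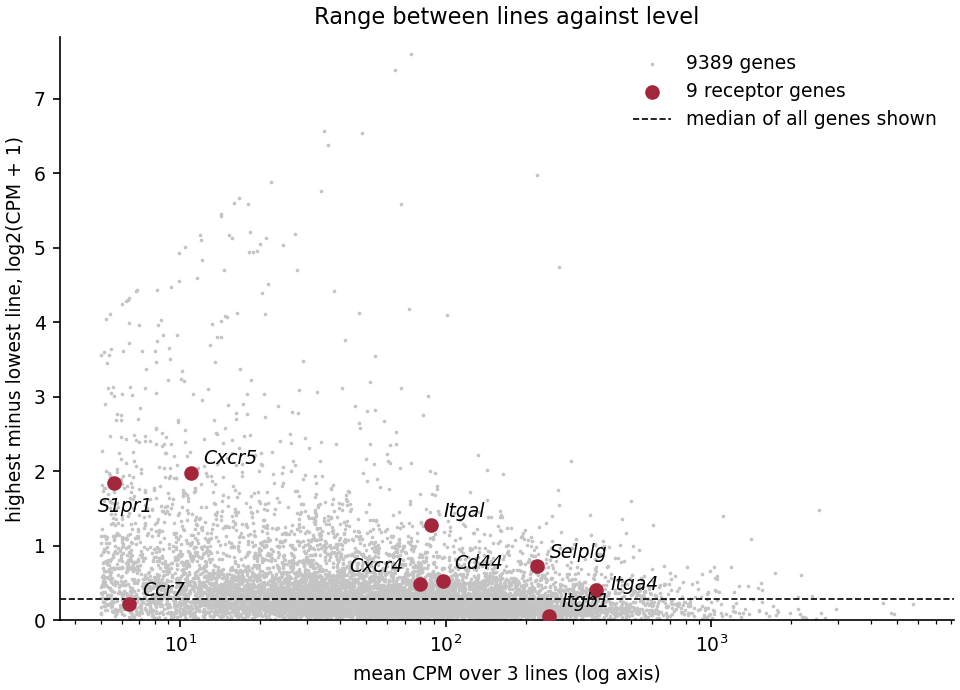
Range between the lines (log2(CPM + 1), highest minus lowest) against mean CPM (log axis) for the 9 receptor genes (red) and the 9389 genes with a mean of at least 5 CPM (grey), with their median of 0.29 as a dashed line. Cxcr5, S1pr1 and Itgal stood above 1, and Itgb1 lay near 0.

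Among the chemokine receptors, Cxcr4 was high and Cxcr5 and Ccr7 were low. Cxcr4, the receptor of CXCL12 (ENSMUSG00000045382.6, chr1:128588199-128592293, minus strand, 2 exons), was counted at 70.0, 98.4 and 71.6 CPM in lines 1, 2 and 3, with a mean of 79.99 ± 15.9 CPM (SD, n = 3). Per kilobase of exon it stood above 90.9% of the tested genes. Line 2 was higher than both others, which were nearly equal. The highest line was 1.40 times the lowest, with an adjusted p of 6.35e-29 in the chi-square test over all genes. Without line 2 the range was 0.01 and the adjusted p 0.838 in the chi-square test.

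The 250 bases upstream of the start of Cxcr4 and of Itgb1 are shown because these were the receptor genes with the highest levels per kilobase among the 4 (with Itga4 and Cd44) that have a window in the RefSeq table of GRCm38.p6, and because line 2 was higher for Cxcr4 while Itgb1 hardly moved. Capitals mark matches to the SP1 letters GGGCGG or their complement, and in Cxcr4 also the core motif of NRF-1, which was added to the search after this sequence had been seen. Cxcr4 lies on the minus strand and its window at chr1:128592300-128592549. Itgb1 lies on the plus strand and its window at chr8:128685404-128685653.
Cxcr4: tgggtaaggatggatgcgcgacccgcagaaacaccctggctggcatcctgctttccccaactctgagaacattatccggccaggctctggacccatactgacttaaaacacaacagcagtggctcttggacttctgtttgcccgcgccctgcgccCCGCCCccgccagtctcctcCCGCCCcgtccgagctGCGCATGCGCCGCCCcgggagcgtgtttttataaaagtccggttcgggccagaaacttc
Itgb1: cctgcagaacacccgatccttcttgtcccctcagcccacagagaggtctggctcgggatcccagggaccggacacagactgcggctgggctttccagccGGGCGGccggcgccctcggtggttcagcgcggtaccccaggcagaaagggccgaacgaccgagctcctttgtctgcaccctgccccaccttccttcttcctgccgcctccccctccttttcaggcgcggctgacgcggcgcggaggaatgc
The Cxcr4 window held 3 SP1 matches, 1 NRF-1 match that shares 1 base with the last SP1 match, and 19 CG dinucleotides. The Itgb1 window held 1 SP1 match and 21 CG dinucleotides. Over 32851 promoter windows of the same length, 32.7% held the SP1 letters and 1.83% the NRF-1 core on either strand, and the median window had 6 CG dinucleotides. Itga4 had 1 SP1 match and Cd44 had 0, and the NF-Y letters CCAAT (33.8% of windows) and the ETS letters CGGAAG (13.6% of windows) were in none of the 4. A match is a run of letters, and binding was not measured in these libraries.

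Cxcr5, the receptor for the follicular chemokine CXCL13 (ENSMUSG00000047880.15, chr9:44511787-44561877, minus strand), had the widest range of the 9 genes. It was counted at 4.65, 6.79 and 21.4 CPM in lines 1, 2 and 3, from 101, 134 and 544 counts. The 95% Poisson intervals, which cover counting error only, were 3.79 to 5.65, 5.69 to 8.04 and 19.6 to 23.2 CPM, so line 3 lay clear of both others. It was 3.15 times the middle line and 4.59 times the lowest, with an adjusted p of 8.85e-73 in the chi-square test over all genes, and the range of 1.98 was above that of 97.6% of genes with a mean of at least 5 CPM. Leaving out line 3 brought the range down to 0.46. Exons of Cxcr5 share 110 bases with exons of Bcl9l on the opposite strand, and Bcl9l was at 44.9, 54.0 and 46.6 CPM in lines 1, 2 and 3. Its part in the counts of Cxcr5 was not tested. The 3 genes whose pattern over the lines came nearest to that of Cxcr5, among 9388 genes and by Euclidean distance of the log2 deviations, were Furin (distance 0.018), a proprotein convertase, Ulbp1 (0.094), a ligand of the NKG2D receptor, and Gpr18 (0.096), a G protein-coupled receptor of lymphocytes. With 3 lines such likeness is a description. Gpr18 also matched Cxcr5 in level, with 4.88, 6.69 and 23.2 CPM.

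Ccr7, the receptor for CCL19 and CCL21 (ENSMUSG00000037944.8, chr11:99144196-99155077, minus strand), was counted at 5.99, 7.14 and 6.12 CPM in lines 1, 2 and 3, or 6.42 ± 0.631 CPM (SD, n = 3). The intervals of the lines overlapped, from 5.0 to 7.11 CPM for line 1 to 6.01 to 8.42 CPM for line 2. From 130, 141 and 156 counts, its adjusted p was 0.333 in the chi-square test.

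The counts of this and of the later lists include those of the 9 genes that belong to them, and the widest range in a list is that among its genes outside the 9 with a mean of 5 CPM or more. Each list count is to be read beside the 66.8% of all genes tested that differed. Each median range is to be read beside the 0.29 of all genes with a mean of at least 5 CPM. No list was tested against either. The family list held 22 chemokine receptors, of which 6 reached 1 CPM in every line and 8 had no count in any. Of 9 tested, 6 differed between the lines, and the median range of the 4 with a mean of at least 5 CPM was 1.02. Besides Cxcr4, the receptor with the highest level per length was Ackr2, which binds and degrades inflammatory chemokines. It stood at 36.9, 12.1 and 37.6 CPM, lowest in line 2, where Cxcr4 was highest. It also had the widest range of the receptors outside the 9 genes, 1.56. The matching ligands Cxcl12, Cxcl13, Ccl19 and Ccl21a had no count in any line.

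VLA-4, which binds VCAM-1 and fibronectin, is made of the alpha subunit encoded by Itga4 and the beta subunit encoded by Itgb1. Itgb1 (ENSMUSG00000025809.15, chr8:128685654-128733200, plus strand, 16 exons) had the highest level per exon length of the 9 genes and the smallest range. It was counted at 250.8, 239.9 and 243.7 CPM, or 245 ± 5.52 CPM (SD, n = 3), and only 4.74% of the genes with a mean of at least 5 CPM had a narrower range than its 0.06, which was 0.02 without line 1. The adjusted p was 0.102 in the chi-square test. It was 0.0395 with DESeq2 size factors and also without line 3, and 0.0329 with library size alone, while the highest line was 1.05 times the lowest, so the call depended on the scaling and the size of the difference was small either way.

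Itga4 (ENSMUSG00000027009.18, chr2:79255426-79333123, plus strand, 28 exons) was counted at 325, 348 and 430 CPM, or 368 ± 55.4 CPM (SD, n = 3), the most counts of any of the 9 genes. Line 3 was the highest, 1.32 times the lowest, and the adjusted p was 1.34e-84 in the chi-square test. Lines 1 and 2 alone had a range of 0.09, against 0.40 with line 3. Of the 50-base stretches of its transcript with the longest coding sequence, 10.9% were also found, on either strand, in transcripts of other genes. Cerkl was one of these, and 1124 exon bases of Itga4 overlap it on the opposite strand, so both values may count the same bases. Cerkl had 1, 45 and 96 counts and Itga4 had 7054, 6867 and 10959, and the part of the overlap in the difference of Itga4 was not tested. Since Itgb1 did not move with it, the level of Itga4 per level of Itgb1, both per kilobase, was 0.378, 0.423 and 0.515 in lines 1, 2 and 3.

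Itgal encodes the alpha subunit of LFA-1, which pairs with the product of Itgb2 and binds ICAMs (ENSMUSG00000030830.18, chr7:127296260-127335138, plus strand, 30 exons). It was counted at 140.5, 57.5 and 64.6 CPM in lines 1, 2 and 3, with a mean of 87.5 ± 46.0 CPM (SD, n = 3). Line 1 was 2.17 times the middle line and 2.44 times the lowest, with an adjusted p of 2.12e-228 in the chi-square test. The range of 1.27 was above that of 94.2% of genes, and 0.17 without line 1. Itgb2, the most abundant integrin subunit per length outside the 9 genes (29.2 ± 7.33 CPM per kilobase, SD, n = 3), took another course, with 81.2, 71.7 and 114 CPM. It was highest in line 3, not in line 1. The level of Itgal per level of Itgb2, both per kilobase, was 0.804, 0.373 and 0.263 in lines 1, 2 and 3.

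The integrin list held 26 subunits, of which 8 reached 1 CPM in every line and 6 had no count in any. Of the 13 tested, 10 differed between the lines, with a median range of 0.40 over the 7 with a mean of at least 5 CPM. Itgb3 had the widest range outside the 9 genes, with 14.4, 7.45 and 13.2 CPM. Itga6 and Itgav, picked after their values were seen as the other abundant alpha subunits, varied little, at 61.0 to 67.6 and 45.6 to 50.7 CPM. Of 14 genes listed for integrin activation, whichever way they act on it, 11 reached 1 CPM in every line and 11 of 12 tested differed. The median range of those with a mean of 5 CPM or more was 0.27. Rap1b, a small GTPase upstream of integrin affinity, had the highest mean level per length, 56.9 ± 6.06 CPM per kilobase (SD, n = 3). Rap1b was not separated from Tln1 (53.3 ± 3.21), named after its values were seen, which stood above it in line 2. Vcl, which links integrins to actin, had the widest range with 46.3, 68.9 and 85.5 CPM. Of the 5 counter-receptors, Icam1 stood at 36.3, 40.5 and 39.1 CPM and Icam2 at 10.8, 10.6 and 7.62 CPM, and 2, Vcam1 and Fn1, had no count.

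**Figure D3:**
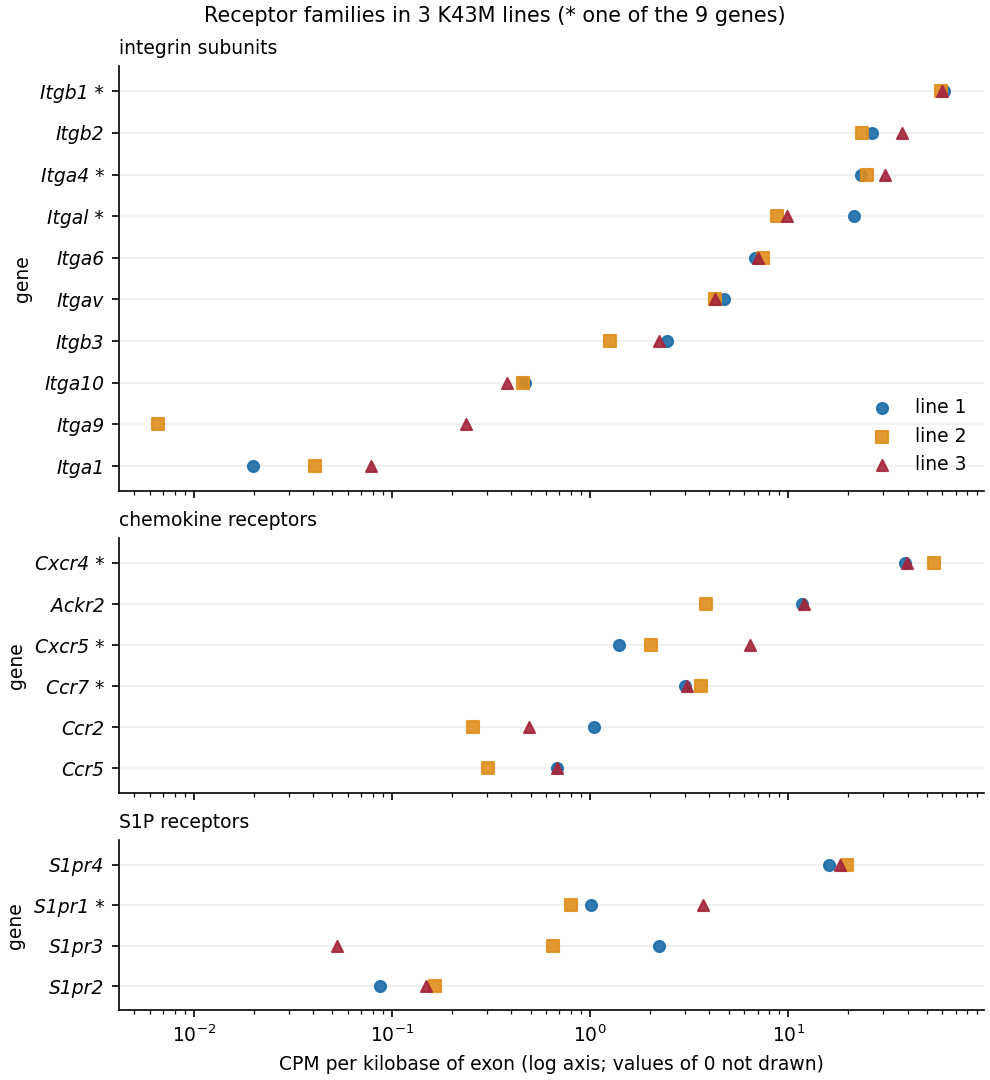
Level of the genes of 3 receptor families that reached 1 CPM in at least 1 line, in CPM per kilobase of exon (log axis, values of 0 not drawn). Each line has 1 symbol, and an asterisk marks the 9 receptor genes. Itgb1, Cxcr4 and S1pr4 led their families, and S1pr1 was highest in line 3 while S1pr3 was lowest there.

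Cd44 (ENSMUSG00000005087.17, chr2:102811141-102901665, minus strand, 19 exons) was counted at 95.1, 81.2 and 117 CPM, or 97.8 ± 18.1 CPM (SD, n = 3). Line 3 was highest and 1.44 times the lowest line, line 2, with an adjusted p of 1.42e-32 in the chi-square test. The range was 0.52, and it was 0.28 without line 2 and 0.23 without line 3. Counts per gene do not tell the splice forms of Cd44 apart. The list of the hyaluronan system and of proteins that tie CD44 to actin had 8 genes, of which 5 reached 1 CPM in every line and 4 of 6 tested differed, with a median range of 0.18. Its highest and most variable gene apart from Cd44 was Msn, which encodes the linker moesin, at 896, 1062 and 1174 CPM. Cd44 and Msn were both highest in line 3, but line 2 was the lowest for Cd44 and in the middle for Msn.

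Selplg (ENSMUSG00000048163.13, chr5:113818536-113832644, minus strand, 2 exons) was counted at 279.5, 214 and 168 CPM, or 221 ± 56.0 CPM (SD, n = 3). It was highest in line 1 and lowest in line 3, 1.66 times apart, with an adjusted p of 1.76e-144 in the chi-square test. The range was 0.73, and it was 0.35 without line 1 and 0.39 without line 3. Its neighbours on the chromosome stood in the same order. The median of 81 genes within 5 Mb deviated from the mean of the lines by 0.26, -0.04 and -0.19 in lines 1, 2 and 3 on the log2(CPM + 1) scale, and Selplg by 0.37, -0.01 and -0.36. The same held for the median of the 643 genes of chromosome 5, at 0.27, -0.07 and -0.19. With the neighbours subtracted, the range of Selplg was 0.28. Whether the shift of chromosome 5 had a part in the difference of Selplg was not tested. Cdk6 is itself on chromosome 5 and stood in the same order. For the other 8 genes the neighbours hardly moved, with ranges from 0.0064 for Cxcr5 to 0.095 for Cxcr4, and subtracting them left ranges of 1.99 for Cxcr5, 1.78 for S1pr1 and 1.35 for Itgal.

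**Figure D4:**
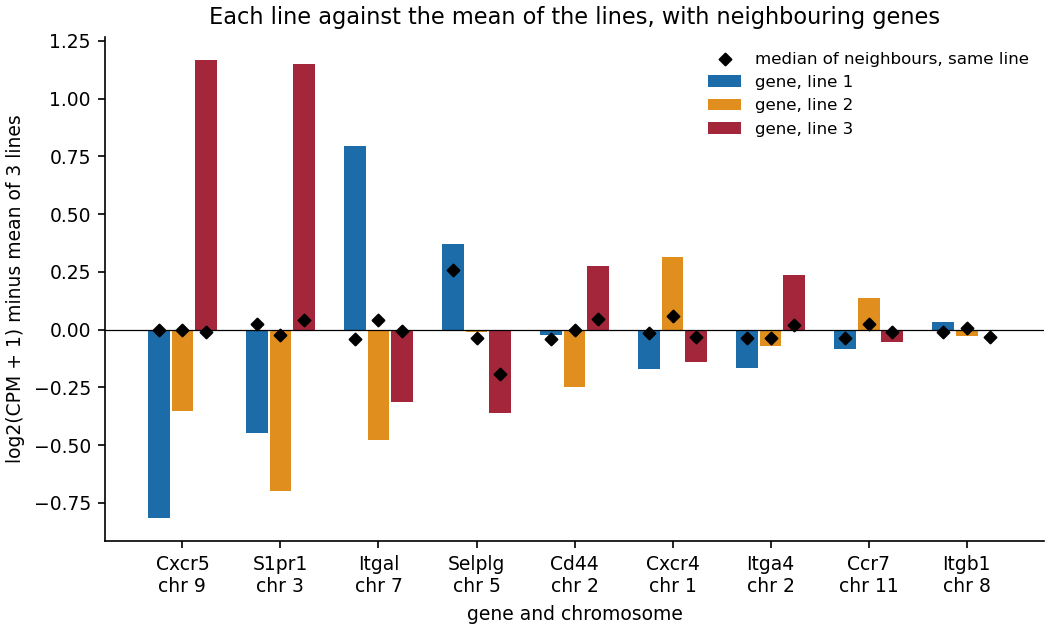
How far each line lay from the average of all 3 (log2(CPM + 1), bars from 0) for the 9 receptor genes, with the median deviation of neighbouring genes within 5 Mb in the same line (diamonds). The diamonds lay near 0 except beside Selplg, where they were 0.26, -0.04 and -0.19 in lines 1, 2 and 3.

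PSGL-1 binds selectins only once sugar- and sulphate-adding enzymes have decorated it. Of 13 genes for selectins, their ligands and these enzymes, 9 reached 1 CPM in every line. The number that differed was 11 of 11 tested, beside 66.8% of all genes tested. The median range was 0.73 over the 9 with a mean of at least 5 CPM, beside 0.29 over all such genes. Spn, which encodes the sialomucin CD43, had the highest mean level per length apart from Selplg, from 152, 219 and 132 CPM. Its 35.8 ± 9.80 CPM per kilobase was not separated from the 33.5 ± 7.29 of Tpst1 (SD, n = 3). Tpst1 stood above Spn in lines 1 and 3. St3gal6, a sialyltransferase, had the widest range with 117, 92.2 and 207 CPM. Thus line 3 was lowest for Selplg and highest for St3gal6. Among genes picked after their values were seen, Fut7, the fucosyltransferase that completes the selectin-binding sugar, was at 0.138, 0.355 and 0.667 CPM, the tyrosine sulphotransferase gene Tpst1 at 117, 82.7 and 80.9 CPM, and Tpst2 at 70.6, 42.9 and 46.6 CPM. Tpst1 and Tpst2 lie on chromosome 5, as does Selplg, and the part of the shift of that chromosome in their values was not tested. Sele and Selp, the genes of the selectins of endothelium and platelets, had no count in any line.

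S1pr1 (ENSMUSG00000045092.8, chr3:115710433-115715072, minus strand, 2 exons) was the lowest of the 9 genes, with 3.09, 2.43 and 11.3 CPM from 67, 48 and 289 counts. The 95% Poisson intervals were 2.39 to 3.92, 1.79 to 3.22 and 10.1 to 12.7 CPM, so that lines 1 and 2 overlapped and line 3 lay above both. Line 3 was 3.68 times the middle line and 4.67 times the lowest, with an adjusted p of 1.42e-41 in the chi-square test. Without line 3 the range fell from 1.85 to 0.26 and the adjusted p was 0.304 in the chi-square test. S1pr1 and Cxcr5, the genes with the widest ranges of the 9, were thus both highest in line 3, whereas Ccr7, at a like level, was even.

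Of 14 listed genes for lysophospholipid receptors and the handling of sphingosine 1-phosphate, 13 were matched, 6 reached 1 CPM in every line and 6 of 9 tested differed, with a median range of 0.46. S1pr4, a receptor of lymphoid cells, had the highest level per length, with 18.0 ± 1.87 CPM per kilobase (SD, n = 3) from 38.4, 47.3 and 43.3 CPM. Per kilobase it was 15.9, 24.8 and 4.87 times the level of S1pr1 in lines 1, 2 and 3. Cd69, whose product takes S1PR1 off the surface, had the widest range outside the 9 genes at mean levels of 5 CPM or more, with 51.2, 37.7 and 60.2 CPM, and was highest where S1pr1 was highest. S1pr3, picked after its values were seen, was lowest in line 3, where S1pr1 was highest, with 215, 57 and 6 counts in lines 1, 2 and 3. It also fell from line 1 to line 2, between which S1pr1 did not differ.

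Further along the pathway, the 14 genes for G protein coupling and desensitisation were all tested and all reached 1 CPM in every line, and 13 differed, with a median range of 0.57. Grk2, the kinase that marks active chemokine receptors for uptake, was the highest of them at 908, 1127 and 1177 CPM (239 ± 32.0 CPM per kilobase, SD, n = 3). Rgs1, which shortens Gi signals, had the widest range with 10.2, 5.67 and 12.4 CPM. Of the 6 regulators of homing receptor genes, 5 differed. Foxo1, a transcription factor that drives Klf2 and Ccr7 in lymphocytes, had the highest mean level per length, from 263, 277 and 201 CPM. Hif1a, which raises Cxcr4 under hypoxia, had the widest range with 185, 159 and 97.4 CPM. Per kilobase these genes were not separated (28.5 ± 4.66 against 24.9 ± 7.60 CPM, SD, n = 3), and Hif1a was above Foxo1 in line 1. Foxo1 and Hif1a were lowest in line 3, which was the highest line of Cxcr5 and S1pr1. Klf2, the activator of S1pr1, stood at 2.53, 3.19 and 2.55 CPM, was named after its values were seen, and had an adjusted p of 0.403 in the chi-square test. Over the 10 pathway lists together, 60 of the 73 tested genes other than the 9 receptors differed between the lines, or 82.2%. The share of all genes tested was 66.8%, and 74.6% when each line had to hold 10 or more counts of a gene. Pathway genes were not matched to the others by level, so whether 82.2% exceeds what their counts would give was not tested. The pathway count was 40 without line 1, 47 without line 2 and 48 without line 3. The share of all genes was then 54.3%, 54.5% and 47.1%. The median range of the 53 with a mean of at least 5 CPM was 0.37.

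Compared in pairs, lines 1 and 2 differed at 6 of the 9 receptor genes and at 43.6% of all genes, lines 1 and 3 at 6 of the 9 and at 52.4%, and lines 2 and 3 at 7 of the 9 and at 51.8%. Cxcr5, Itga4, Itgal, Cd44 and Selplg differed in each of the 3 pairs. Cxcr4 did not differ between lines 1 and 3, nor S1pr1 between lines 1 and 2. Ccr7 and Itgb1 differed in no pair when scaling and the genes tested were those of all 3 lines. With both set anew on lines 1 and 2 alone, Itgb1 passed, at the adjusted p of 0.0395 in the chi-square test given above.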

How the data were processed

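RNA was isolated with the RNeasy kit and sequenced as 50 bp single-end reads, per the labels. These name the SENSE mRNA-Seq kit and the study's methods TruSeq. The authors trimmed reads (Trimmomatic), aligned them to mm10 (STAR), used featureCounts to assign reads to genes, and deposited the counts without normalization. The strand setting is not given in the sources used here. The 6 columns of other samples were not used.

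Counts were normalized in R 4.3.3 with edgeR 4.0.16 (TMM) and given as CPM; log2(CPM + 1) served for ranges. Homogeneity was tested by chi-square for each gene whose counts summed to at least 10 (scipy 1.17.1), with Benjamini-Hochberg adjustment at 0.05. The test was checked on simulated data that held counting noise only, as the test assumes, so the check covers no other spread. Symbols, coordinates and exon lengths came from Gencode M21, matched for 50376 genes. Neighbours lay within 5 Mb and averaged 2 or more on the log2(CPM + 1) scale. As alternatives, DESeq2 1.42.0 size factors, scaling by library size, other filters, a pseudocount of 0.1, another length, and leaving out each line were tried.

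The 9 genes and all lists were chosen with earlier results of these data known. Other genes were named by a rule: of each list the gene with the highest level per length and the one with the largest range at a mean of at least 5 CPM; the highest marker of each cell type; Cdk6; and the 3 genes nearest to the receptor with the widest range. Exceptions are stated beside their values. Some genes that the rule names are not reported here.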

Additional observations from a re-analysis of the deposited data

How the results depend on the processing

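Of 238 alternative values, 223 kept their direction, their side of the threshold and, where there was no test, stayed within the spread between lines. With no filter on low counts, the share of genes that differed was 16.9% in place of 66.8%, as genes with few or no counts then entered the denominator, and the number of receptor genes that differed was again 7. It was 8 with DESeq2 size factors or library size alone, through Itgb1. Leaving out each line in turn gave 6 to 7 receptor genes, 47.1 to 54.5% of genes and 40 to 48 genes of the pathway lists. Single lines decided the calls of Cxcr4 (line 2) and S1pr1 (line 3), and the ranges of Itgal and Itgb1 moved by over 1.5 times without line 1, of Ccr7 without line 2 (0.01), of Cxcr5 and Itga4 without line 3, of Selplg without line 1 or 3 and of Cd44 without line 2 or 3. No paired analysis was possible because there was 1 group of samples here. Precision was lowest for S1pr1, Cxcr5 and Ccr7, which had 48 to 544 counts per line.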
